A study of Mus musculus with 42 samples.

Results

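The Wnt ligands described here are 8 secreted signalling proteins, Wnt3, Wnt3a, Wnt5a, Wnt5b, Wnt6, Wnt8a, Wnt9b and Wnt11. Each was measured by the array probe whose RefSeq accession belongs to it, and each had 1 such probe, so the choice of the brightest probe per gene left nothing out. They make up 8 of the 20972 genes that the arrays name through RefSeq. The rule that picks the probes uses no group and no comparison. The 8 ligands themselves were chosen with earlier results of these data known. Counts of ligands called therefore describe these 8 and give no evidence on Wnt ligands as a class.

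Wnt proteins are lipid-modified in the endoplasmic reticulum by the acyltransferase Porcn, carried to the cell surface by Wls and bound there by Frizzled receptors. Canonical ligands, such as Wnt3, Wnt3a and Wnt8a, act with the co-receptors Lrp5 and Lrp6 to stabilise beta-catenin, which turns on target genes together with the TCF and LEF factors. Wnt5a, Wnt5b and Wnt11 are best known for beta-catenin-independent signalling that steers cell movement and polarity. In the mouse embryo Wnt3 is required for the primitive streak to form, and inhibitors secreted by the anterior endoderm restrain Wnt signalling.

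The cells were 1 mouse embryonic stem cell (mESC) line, the HRS/Gsc-GFP dual reporter line, in which GFP is knocked in at Gsc, a gene of the primitive streak and mesendoderm, and RedStar at Hhex, a gene of the definitive endoderm. They were differentiated in a monolayer towards anterior definitive endoderm (ADE). The untreated series held mESCs in LIF medium (ESC), unsorted day 2 cells (d2) and 9 sorted populations. These were Gsc-negative and Gsc-positive cells of day 3 and day 4 (d3 G-, d3 G+, d4 G- and d4 G+), Gsc-negative, Gsc-low and Gsc-high cells of day 5 (d5 G-, d5 Glow and d5 Ghigh), and Gsc-positive cells without or with Hhex of day 6 (d6 G+H- and d6 G+H+). The second series held day 6 cells that had received DMSO throughout (Control), the EZH2 inhibitor EPZ6438 at 2.5 µM before differentiation and DMSO during it (ES_EPZ), or DMSO before and EPZ6438 at 2.5 µM during differentiation (ADE_EPZ). The labels name no sort for this series, while the methods speak of FACS-purified ADE cells without naming a series, so whether these cells were sorted is not settled. EZH2 is the catalytic subunit of PRC2, which places a repressive methyl mark on histone H3. All 14 groups carry both reporters and no group carries a mutation of a Wnt gene. The sorted groups are defined by reporter level and not by cell type.

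Each group had 3 one-colour arrays, 42 in all, said to come from independent experiments. Levels are log2 intensity, so 1 unit is a doubling, and they can be compared between groups for a probe but not between probes. By the scanner's own test of signal over background, arrays had 24454 to 40392 probes above it, and 0 probe values were saturated. The probes of Wnt3, Wnt5a, Wnt5b and Wnt11 were well above background on 42 of 42 arrays, Wnt9b on 36, Wnt6 on 35, Wnt8a on 28 and Wnt3a on 4. A gene was called when limma's p, adjusted over all 55681 probes, was at most 0.01 and the log2 difference at least 1.5. Each p sets a difference of group means against the spread between arrays of a group, estimated per probe from all 42 arrays. In such bulk samples a change in the share of cells that express a ligand and a change in RNA per cell cannot be told apart. The summed intensity of 6 ESC markers lay between 78400 and 123000 in ESC and between 1320 and 1430 in d6 G+H+, and that of 6 ADE markers lay between 1070 and 3260 in ESC and between 132000 and 146000 in d6 G+H+. Over the 8 ligands, d2 replicate 2, d5 Ghigh replicate 3 and ES_EPZ replicate 3 stood lowest within their groups, with mean deviations of -0.58, -0.57 and -0.51.

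**Figure D1:**
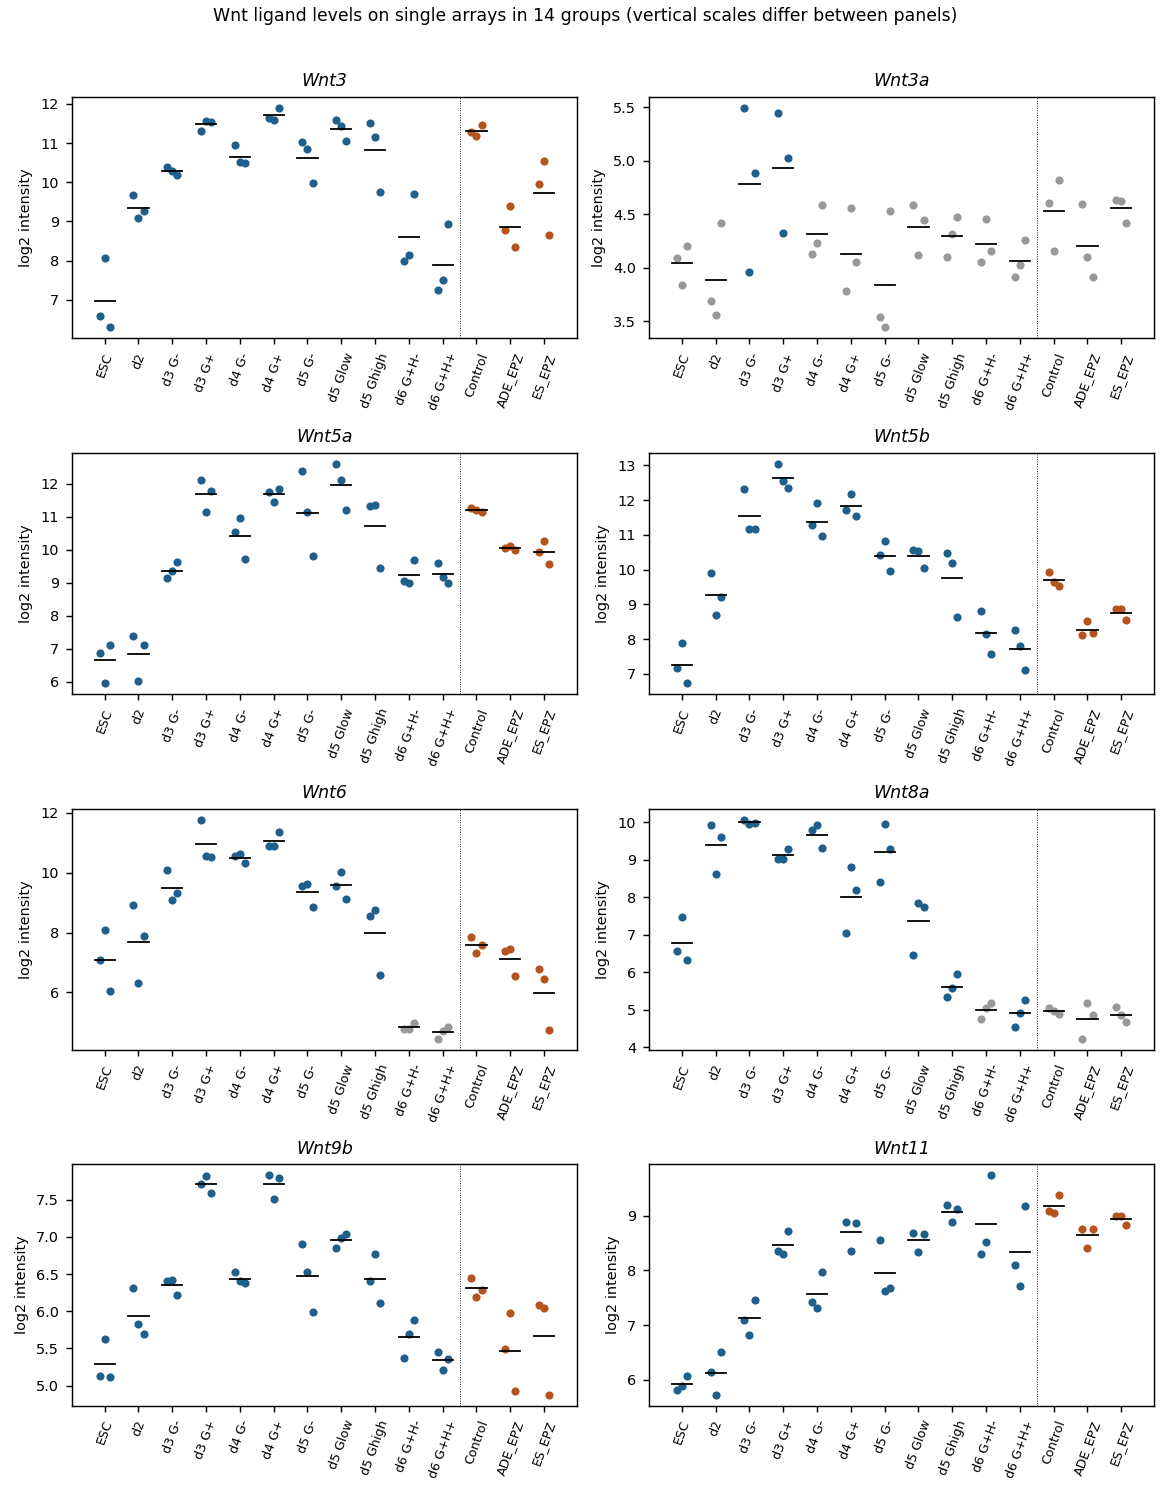
Log2 intensity of each Wnt ligand (vertical axis) on the 3 arrays of each group (points) with the group mean (line). Blue points are the untreated series, orange points the EPZ6438 series, and grey points belong to groups in which no array was well above background. Wnt3, Wnt5b, Wnt6 and Wnt9b were highest at d3 G+ or d4 G+, Wnt8a at d3 G-, and Wnt11 was still at 8.33 in d6 G+H+.

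Wnt3, the canonical ligand that starts the primitive streak, had 6.58, 8.06 and 6.29 in the 3 ESC arrays and 9.68, 9.09 and 9.27 at d2. At d3 it had 10.39, 10.28 and 10.20 in G- and 11.32, 11.58 and 11.54 in G+ cells. The ESC arrays were all below the d2 arrays, and the d2 arrays were all below those of d3. At d4 Wnt3 had 10.96, 10.51 and 10.50 in G- and 11.64, 11.58 and 11.90 in G+ cells. At d5 it had 11.04, 10.84 and 9.97 in G-, 11.60, 11.43 and 11.06 in Glow and 11.52, 11.16 and 9.76 in Ghigh cells. At d6 it had 8.0, 8.13 and 9.71 in G+H- and 7.25, 7.50 and 8.93 in G+H+ cells, all below every d3 to d5 array. The mean was lowest in ESC (6.98 ± 0.95, SD, n = 3) and highest in d4 G+ (11.71 ± 0.17, SD, n = 3). Of the 13 neighbouring pairs in the order of the 14 group means, d4 G+ above d3 G+ was the 1 pair that did not overlap. The gap was narrow, with the lowest d4 G+ array at 11.585 and the highest d3 G+ array at 11.575. The difference between these 2 groups was not tested.

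Wnt8a, a canonical ligand of the early streak and epiblast, had 6.58, 7.46 and 6.32 in ESC and 9.94, 8.64 and 9.62 at d2. At d3 it had 10.08, 9.96 and 9.97 in G- and 9.04, 9.03 and 9.30 in G+ cells. Unlike Wnt3 it was higher on every Gsc-negative array than on any Gsc-positive array of that day. At d4 it had 9.80, 9.93 and 9.31 in G- and 7.06, 8.81 and 8.19 in G+ cells. At d5 it had 8.40, 9.95 and 9.28 in G-, 6.47, 7.85 and 7.76 in Glow and 5.33, 5.59 and 5.95 in Ghigh cells. The 3 d5 populations therefore stood in the order G-, Glow, Ghigh with no overlap between neighbours. At d6 Wnt8a had means of 5.00 ± 0.22 (SD, n = 3) in G+H- and 4.91 ± 0.36 (SD, n = 3) in G+H+ cells, and 1 of these 6 arrays was above background. In the EPZ6438 series it was above background on 0 of 9 arrays.

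Wnt3a, the canonical ligand of the posterior streak and tail bud, was near background throughout. Its group means lay between 3.84 at d5 G- and 4.93 at d3 G+, and the 4 arrays above background were 2 of d3 G- and 2 of d3 G+. The values there were 5.49, 3.97 and 4.88 in G- and 5.45, 4.32 and 5.03 in G+ cells, and no neighbouring pair of groups in its order was free of overlap.

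Wnt6, a ligand of surface ectoderm and other embryonic epithelia, had 7.09, 8.09 and 6.06 in ESC and 8.93, 6.30 and 7.87 at d2, which overlapped. It had 10.07, 9.08 and 9.34 in d3 G-, 11.78, 10.55 and 10.52 in d3 G+, 10.57, 10.61 and 10.34 in d4 G- and 10.88, 10.89 and 11.37 in d4 G+ cells. At d5 it had 9.57, 9.62 and 8.87 in G-, 9.57, 10.04 and 9.12 in Glow and 8.57, 8.76 and 6.58 in Ghigh cells. Thus every Ghigh array was below every other d5 array. At d6 the values were 4.78, 4.79 and 4.97 in G+H- and 4.45, 4.71 and 4.86 in G+H+ cells, with 0 of 6 arrays above background.

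Wnt9b, a ligand best known from kidney development, was dim, with a range of 2.42 log2 units. It had 5.13, 5.62 and 5.12 in ESC, where 1 of 3 arrays was above background, and 6.31, 5.82 and 5.69 at d2. It had 7.71, 7.81 and 7.59 in d3 G+ and 7.83, 7.51 and 7.79 in d4 G+ cells, which lay above the arrays of all other groups. The d3 G- and d4 G- means were 6.35 ± 0.11 and 6.43 ± 0.08 (SD, n = 3 each), and those of d6 G+H- and G+H+ were 5.65 ± 0.26 and 5.34 ± 0.12 (SD, n = 3 each).

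Wnt5a, a ligand of convergent extension and limb and axis outgrowth, had 6.86, 5.95 and 7.11 in ESC and 7.38, 6.00 and 7.11 at d2, which overlapped. At d3 it had 9.14, 9.34 and 9.61 in G- and 12.13, 11.13 and 11.79 in G+ cells. Every G+ array was above every G- array. It had 10.53, 10.98 and 9.73 in d4 G-, 11.75, 11.44 and 11.84 in d4 G+, 12.38, 11.16 and 9.80 in d5 G-, 12.61, 12.11 and 11.20 in d5 Glow and 11.32, 11.35 and 9.45 in d5 Ghigh cells. At d6 it had 9.05, 9.0 and 9.68 in G+H- and 9.59, 9.19 and 9.0 in G+H+ cells, still above every ESC and d2 array.

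Wnt5b, a close relative of Wnt5a, had 7.17, 7.88 and 6.73 in ESC and 9.92, 8.71 and 9.22 at d2. At d3 it had 12.34, 11.16 and 11.18 in G- and 13.05, 12.55 and 12.34 in G+ cells, its highest levels. After d3 G+ the Wnt5b mean was lower on each later day. It was 11.82 ± 0.32 in d4 G+, 10.38 ± 0.28 in d5 Glow and 7.72 ± 0.57 in d6 G+H+ cells (SD, n = 3 each). The d3 G- arrays overlapped those of d4 G+ and of d4 G-, and the steps from d3 to d4 and from d4 to d5 were not tested. The d6 G+H+ arrays overlapped the ESC arrays.

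Wnt11, a ligand of gastrulation movements and heart formation, had 5.82, 5.88 and 6.08 in ESC and 6.15, 5.72 and 6.51 at d2. It had 8.35, 8.30 and 8.71 in d3 G+ and 9.20, 8.89 and 9.11 in d5 Ghigh cells. At d6 it had 8.29, 8.52 and 9.74 in G+H- and 8.11, 7.72 and 9.18 in G+H+ cells. The d6 arrays overlapped those of d5 Ghigh and lay above all ESC and d2 arrays.

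The comparisons with ESC asked when each ligand changed as the cells left pluripotency. At d2, before any sort, Wnt3 rose by 2.37 (SE 0.47, adjusted p = 0.00108), Wnt5b by 2.02 (SE 0.40, adjusted p = 0.000908) and Wnt8a by 2.61 (SE 0.38, adjusted p = 1.82e-05) on the log2 scale. These 3 of 8 stand beside 0.194% of all probes called higher, and 0 were called lower beside 0.709%. Wnt5a (0.19, SE 0.47, adjusted p = 0.986) and Wnt11 (0.20, SE 0.31, adjusted p = 0.948) were not called. The Wnt3 call was lost without ESC replicate 1 or 3 or d2 replicate 1, and the Wnt5b call without ESC replicate 3 or d2 replicate 1, which left 1 of 8 called at the lowest. Within the 2 slides that held both groups Wnt3 rose by 1.03 and 2.98, and Wnt5b by 0.82 and 2.49. Wnt8a rose there by 1.17 and 3.30. The median log2 difference of the 8 ligands was 0.64, and that of all probes 0.02.

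By d3 the G- cells had 5 ligands called higher than in ESC, Wnt3, Wnt5a, Wnt5b, Wnt6 and Wnt8a, beside 0.533% of all probes, and 0 called lower, beside 0.821%. The largest of these was Wnt5b, at 4.30 (SE 0.40, adjusted p = 2.02e-09). Wnt9b (1.06, SE 0.25, adjusted p = 0.00454) and Wnt11 (1.20, SE 0.31, adjusted p = 0.00846) passed the p threshold and missed the fold threshold. The Wnt6 call was lost without ESC replicate 1 or 3 or d3 G- replicate 1, with 75th percentile scaling and with only these groups in the fit. Wnt11 was called with 75th percentile scaling, at 1.60 (adjusted p = 0.0023). In d3 G+ cells 7 of 8 ligands were called higher, beside 1.49% of all probes, and 0 lower, beside 2.33%. The calls ran from Wnt8a at 2.33 (SE 0.38, adjusted p = 1.97e-05) to Wnt5b at 5.38 (SE 0.40, adjusted p = 2.05e-12). The 7 calls held without any 1 of the 6 arrays. Wnt3a, the exception, had 0.89 (SE 0.31, adjusted p = 0.0413), at least 1.04-fold when the ESC arrays are set at the dimmest signal above background. The median difference was 3.20 over the 8 ligands and 0.02 over all probes.

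At d5 the Glow cells had 6 ligands called higher than ESC, beside 1.87% of all probes, and the Ghigh cells had 4, beside 1.94%. In both 0 were called lower, beside 2.68% and 2.88%. Both comparisons use the same ESC arrays as those of d2 and d3. Wnt3, Wnt5a, Wnt5b and Wnt11 were called in both, and Wnt6 (2.50, SE 0.54, adjusted p = 0.000661) and Wnt9b (1.67, SE 0.25, adjusted p = 4.09e-06) in Glow cells. The Wnt6 call in Glow cells was lost without ESC replicate 3 and with only these groups in the fit. The Wnt9b call there was lost with a larger normexp offset (1.06) and with no background correction (1.28), and the Wnt5b call in Ghigh cells with only these groups in the fit. Wnt8a had 0.57 (SE 0.38, adjusted p = 0.415) in Glow and -1.16 (SE 0.38, adjusted p = 0.0278) in Ghigh cells.

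In d6 G+H+ cells 2 ligands were called higher than in ESC, beside 3.22% of all probes, and 2 were called lower, beside 3.35%. Wnt5a rose by 2.62 (SE 0.47, adjusted p = 4.13e-05) and Wnt11 by 2.41 (SE 0.31, adjusted p = 9.59e-08). Wnt6 fell at least 4.32-fold (adjusted p = 0.000657), a bound because it was not well above background on the d6 arrays, and Wnt8a fell by 1.88 on the log2 scale (SE 0.38, adjusted p = 0.000212) a value that rests on 1 of 3 d6 arrays above background. The Wnt6 call was lost without ESC replicate 2, both calls with a larger normexp offset, and the Wnt8a call also with no background correction. Wnt3 (0.91, SE 0.47, adjusted p = 0.191) and Wnt5b (0.46, SE 0.40, adjusted p = 0.55), which both lay far above ESC at d3, were not called at d6.

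The sorted populations of 1 day were compared to ask how the ligands differed with Gsc reporter level. At d3, 6 of 8 ligands were higher on every G+ array than on every G- array, beside 7.26% of all probes, and Wnt8a was lower on every G+ array, beside 8.99%. By the test 1 ligand was called higher, beside 0.372% of all probes, and 0 were called lower, beside 0.612%. That was Wnt5a, at 2.32 (SE 0.47, adjusted p = 0.00175), and its call was lost without d3 G- replicate 1 or 2 or d3 G+ replicate 1 or 3. Wnt9b (1.36, SE 0.25, adjusted p = 0.00054) and Wnt11 (1.33, SE 0.31, adjusted p = 0.00556) missed the fold threshold, and Wnt11 was called without d3 G- replicate 3. Wnt3 had 1.19 (SE 0.47, adjusted p = 0.21), Wnt6 1.45 (SE 0.54, adjusted p = 0.16), Wnt5b 1.09 (SE 0.40, adjusted p = 0.147) and Wnt8a -0.88 (SE 0.38, adjusted p = 0.295). Of 8 mesoderm markers 3 were called higher in d3 G+ cells, and their summed intensity was 10500 to 19100 against 2140 to 3090 in G- cells. Of 6 ESC markers 3 were called lower, and summed to 7410 to 10500 against 29600 to 50400. Of 6 primitive streak markers, which include Gsc itself, 3 were called higher, with sums of 47600 to 56900 against 15600 to 25200. Of 6 ADE markers 1 was called higher, and of 6 visceral endoderm markers 1 was called lower. Of the neural and fibroblast markers 0 were called. The part of these cell types in the ligand values was not tested.

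At d4, 5 of 8 ligands were higher on every G+ array than on every G- array, beside 10.1% of all probes, and Wnt8a was lower, beside 9.18%. Of the 5 higher ones 0 were called, beside 0.409%. Wnt8a was called lower, beside 0.722% of all probes, and fell by 1.65 on the log2 scale (SE 0.38, adjusted p = 0.00609). Within the 2 slides that held both groups the Wnt8a difference was -0.98 and -2.86. The call was lost without d4 G- replicate 1 or 2 or d4 G+ replicate 1 or 3, and with scaling to the 75th percentile in place of quantiles. Wnt9b had 1.27 (SE 0.25, adjusted p = 0.00114), Wnt5a 1.27 (SE 0.47, adjusted p = 0.152) and Wnt3 1.05 (SE 0.47, adjusted p = 0.295). Whether the gap between G+ and G- cells changed from d3 to d4 was tested directly, and 0 of 8 ligands passed, with 0 at an unadjusted p under 0.05. Of all 55681 probes 0 passed, and 1619 had an unadjusted p under 0.05, so the result is not particular to the ligands. The largest such change of a ligand was that of Wnt5a, at -1.05 (SE 0.67, adjusted p = 1).

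At d5, Wnt8a was called lower in Glow than in G- cells, with a log2 difference of -1.85 (SE 0.38, adjusted p = 0.00563), beside 0.325% of all probes called lower. It was the 1 ligand called, and 0 were called higher beside 0.0647%. The Wnt8a difference was -2.79 and -1.52 within the slides that held both groups, and its call was lost without d5 G- replicate 2 or 3 or d5 Glow replicate 1, and with 75th percentile scaling. Without overlap Wnt3 was higher in Glow cells (0.75, SE 0.47, adjusted p = 0.768), beside 5.24% of all probes, and Wnt8a lower, beside 5.15%. Ghigh against Glow gave 0 ligands called higher, beside 0.108% of all probes, and 0 called lower, beside 0.0144%. There Wnt8a had -1.74 (SE 0.38, adjusted p = 0.0246), Wnt6 -1.61 (SE 0.54, adjusted p = 0.257) and Wnt9b -0.52 (SE 0.25, adjusted p = 0.536), all 3 without overlap, beside 6.13% of all probes not overlapping and lower. Wnt11 was the 1 ligand higher on every Ghigh array, at 0.50 (SE 0.31, adjusted p = 0.704), beside 6.08%. Wnt8a was called in that comparison without d5 Glow replicate 1, and the Wnt6 difference was -0.91 without d5 Ghigh replicate 3.

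**Figure D2:**
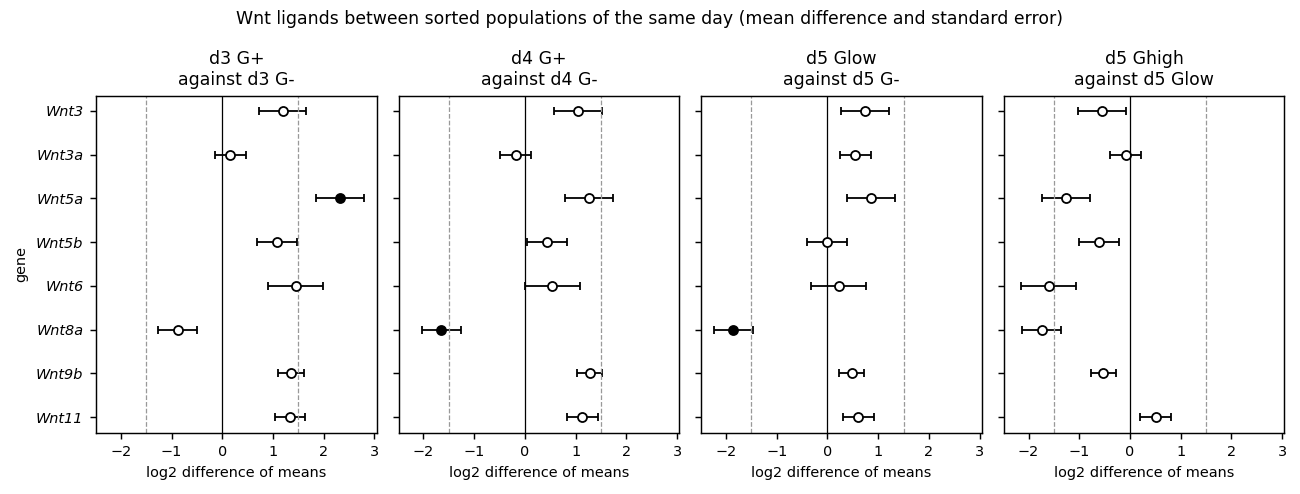
Log2 difference of group means (horizontal axis, with standard error) for each Wnt ligand between sorted populations of 1 day, 3 arrays per group. Filled points were called and dashed lines mark a log2 difference of 1.5. Wnt5a stood at 2.32 at d3, and Wnt8a stood left of 0 in all 4 panels, from -0.88 to -1.85.

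Of the steps compared within the differentiation, that from d5 Ghigh to d6 G+H+ cells had 3 ligands called lower. Wnt3 had 11.52, 11.16 and 9.76 before and 7.25, 7.50 and 8.93 after, with no overlap, and fell by 2.92 on the log2 scale (SE 0.47, adjusted p = 3.15e-05). Wnt5b fell by 2.04 (SE 0.40, adjusted p = 0.000347), and Wnt6 fell at least 8.01-fold (adjusted p = 3.77e-05). These 3 of 8 stand beside 0.761% of all probes called lower, and 0 were called higher beside 1.45%. Without overlap 5 of 8 were lower, beside 13.8%, and 0 higher, beside 11.9%. Wnt9b had -1.09 (SE 0.25, adjusted p = 0.00238), Wnt5a -1.45 (SE 0.47, adjusted p = 0.0369), Wnt11 -0.73 (SE 0.31, adjusted p = 0.119) and Wnt8a -0.72 (SE 0.38, adjusted p = 0.261). Wnt5a was called without d5 Ghigh replicate 3, the array lowest over the ligands. On the slide that held both groups Wnt3 had -4.28, Wnt5b -2.21 and Wnt6 -4.12. When these 2 groups alone were fitted, 0 of the 3 were called, with adjusted p-values up to 0.0456.

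Between d6 G+H+ and G+H- cells, which differ in the Hhex reporter, 0 of 8 ligands were called and 0 of 55681 probes were. The ligand differences lay between -0.72 (Wnt3, SE 0.47, adjusted p = 1) and 0.02 (Wnt5a, SE 0.47, adjusted p = 1), and the arrays of both groups overlapped for all 8, where 3.8% of all probes were higher and 3.55% lower without overlap.

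Across the same step other lists moved too. Of 8 mesoderm markers 5 were called lower from d5 Ghigh to d6 G+H+, and their summed intensity went from between 4950 and 13800 to between 2580 and 2930. Of 6 primitive streak markers 3 were called lower, and the sums were 37900 to 45700 and 25000 to 32900. Of 6 visceral endoderm markers 3 were called higher, with sums of 1990 to 2220 and 4810 to 8690, and 1 of 6 ADE markers was called higher, with sums of 31500 to 104000 and 132000 to 146000. Of 6 neural markers 1 was called higher, with sums of 5160 to 6150 and 4580 to 7960, and of 6 fibroblast markers 1 was called higher and 1 lower. The part of these cell types in the ligand values was not tested.

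EPZ6438 regimens were compared with Control to ask what loss of EZH2 activity before or during differentiation did to the day 6 cells. Wnt3 had 11.27, 11.17 and 11.47 in Control, 8.79, 9.39 and 8.36 in ADE_EPZ and 9.96, 10.53 and 8.65 in ES_EPZ cells. All arrays of both EPZ6438 regimens were below all Control arrays. In ADE_EPZ Wnt3 fell by 2.46 on the log2 scale (SE 0.47, adjusted p = 0.000473), 1 of 8 ligands beside 0.406% of all probes called lower, and 0 were called higher beside 0.97%. The fall was -1.88, -2.81 and -2.68 within the 3 slides, each of which held 1 array of every regimen. The call held without any 1 of the 6 arrays, with values from -2.73 to -2.21.

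Wnt5b had 9.93, 9.65 and 9.52 in Control and 8.12, 8.53 and 8.16 in ADE_EPZ cells, a difference of -1.43 (SE 0.40, adjusted p = 0.0148) that missed both thresholds. Wnt5a had 11.25, 11.20 and 11.14 in Control and 10.05, 10.12 and 9.98 in ADE_EPZ cells, a difference of -1.14 (SE 0.47, adjusted p = 0.14). With Wnt9b (-0.85, SE 0.25, adjusted p = 0.0245) and Wnt11 (-0.53, SE 0.31, adjusted p = 0.358), 5 of 8 ligands were lower on every ADE_EPZ array, beside 14.6% of all probes, and 0 were higher, beside 13.1%. Wnt9b was well above background on 1 of 3 ADE_EPZ arrays. Wnt6 had -0.46 (SE 0.54, adjusted p = 0.775) and its arrays overlapped.

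In ES_EPZ 0 of 8 ligands were called, beside 0.0341% of all probes called lower and 0.199% called higher. Without overlap 6 of 8 were lower than Control, beside 10.1% of all probes, and 0 higher, beside 9.81%. Wnt6 had 6.77, 6.44 and 4.76 in ES_EPZ against 7.86, 7.33 and 7.58 in Control, a difference of -1.60 (SE 0.54, adjusted p = 0.133), with 2 of 3 ES_EPZ arrays above background. Without ES_EPZ replicate 3 it was -0.98. Wnt3 had -1.59 (SE 0.47, adjusted p = 0.0754), from -1.06 to -2.00 when 1 array was left out. ES_EPZ replicate 3 was the lowest of its group for 8 of 8 ligands. Both regimens share the Control arrays, and their direct difference was called for 0 of 8 ligands, beside 128 of 55681 probes. At an unadjusted p under 0.05 there was 1 ligand, Wnt6 at 1.14 higher in ADE_EPZ (SE 0.54, adjusted p = 0.524), beside 4995 of 55681 probes. For Wnt3 the difference was -0.87 (SE 0.47, adjusted p = 0.65).

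Of the marker lists, 2 of 6 primitive streak markers and 1 of 8 mesoderm markers were called lower in ADE_EPZ than in Control. The streak sums were 35700 to 41200 in Control and 23000 to 26100 in ADE_EPZ, the mesoderm sums were 5740 to 6550 and 3320 to 4080, and the ADE sums, with 1 of 6 markers called higher, were 33700 to 46100 and 87700 to 113000. Of the 6 visceral endoderm, 6 ESC and 6 neural markers 1 each was called higher, with sums of 2150 to 3790 and 7760 to 9540, of 1220 to 1960 and 2390 to 3280, and of 6910 to 7290 and 5570 to 6330. Of 6 fibroblast markers 0 were called. In ES_EPZ 1 streak marker was called lower, with streak sums of 31300 to 33200, and 0 genes of the other marker lists were called. The sums there were 4260 to 5350 for mesoderm, 70700 to 104000 for ADE, 5490 to 7210 for visceral endoderm and 9370 to 12900 for neural markers. Their part in the ligand values was not tested. The EPZ6438 series shared no slide and no scanner software version with the untreated series, so a difference between Control and the sorted d6 cells cannot be told apart from batch.

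**Figure D3:**
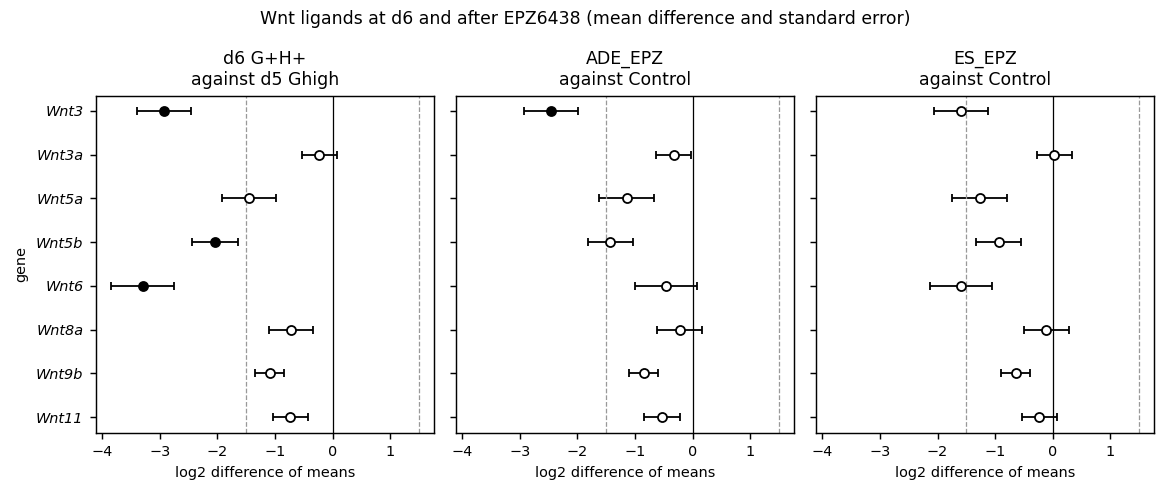
Log2 difference of group means (horizontal axis, with standard error) for each Wnt ligand from d5 Ghigh to d6 G+H+ cells and from Control to either EPZ6438 regimen, 3 arrays per group. Filled points were called and dashed lines mark a log2 difference of 1.5. Wnt3 stood at -2.92, -2.46 and -1.59 in the 3 panels.

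**Figure D4:**
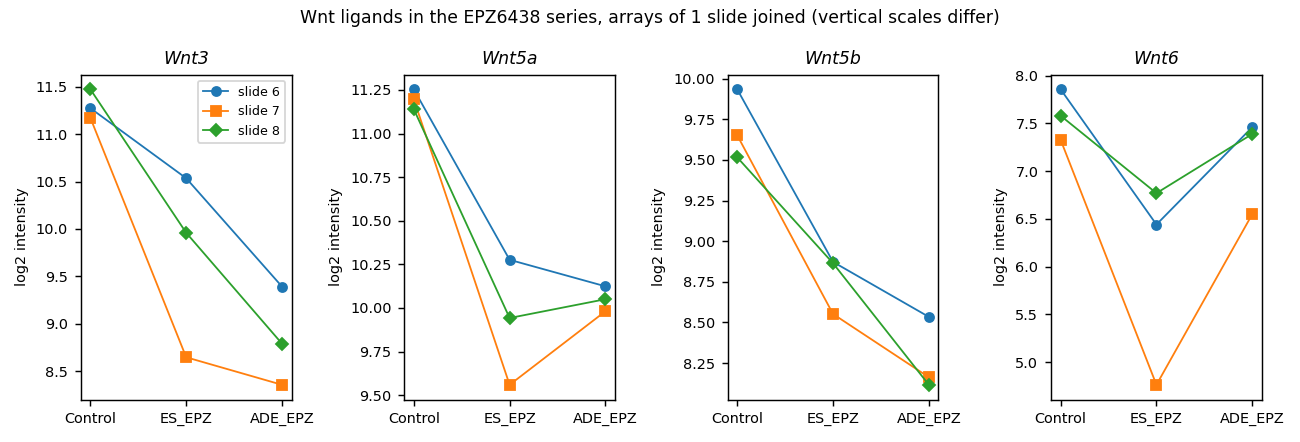
Log2 intensity of Wnt3, Wnt5a, Wnt5b and Wnt6 (vertical axis) in the 3 regimens of the EPZ6438 series, with a line for each slide. The Control array was the highest of its slide for these 4 genes on all 3 slides, and for Wnt6 the ES_EPZ array was the lowest.

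The other genes of the pathway were taken from fixed lists and measured by their brightest probe. Of 12 Wnt target genes 9 were called higher in d3 G+ cells than in ESC and 0 lower, with a median log2 difference of 2.46, where 7 of 8 ligands were called. The largest were T, the streak transcription factor Brachyury, at 6.34 (SE 0.50, adjusted p = 8.42e-12), and Cdx2, a posterior homeobox gene, at 3.98 (SE 0.72, adjusted p = 8.2e-05). From d5 Ghigh to d6 G+H+ 7 of the 12 were called lower and 0 higher, with a median of -2.85. Tnfrsf19, a receptor of the TNF family, fell by 5.04 (SE 0.62, adjusted p = 4.18e-07) and Sp5, a zinc finger repressor, by 3.85 (SE 0.59, adjusted p = 1.45e-05). Axin2, a feedback inhibitor of beta-catenin that is named here after its values were seen, fell by 3.02 (SE 0.40, adjusted p = 1.34e-06), with 1 of 3 d6 G+H+ arrays above background. T and Tbx6 of this list are also among the streak and mesoderm markers.

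In ADE_EPZ 4 of the 12 target genes were called lower than in Control and 0 higher, with a median of -0.40. Tnfrsf19 fell by 5.32 (SE 0.62, adjusted p = 9.28e-07) and Sp5 by 2.97 (SE 0.59, adjusted p = 0.000704), and Apcdd1 and Axin2, named after their values were seen, were the other 2. In ES_EPZ 0 of 12 were called and the median was -0.77. Lef1, a nuclear partner of beta-catenin, was the 1 of 13 intracellular pathway genes called in either step, and fell by 2.11 (SE 0.36, adjusted p = 6.95e-05) from d5 Ghigh to d6 G+H+ and by 1.76 (SE 0.36, adjusted p = 0.000939) in ADE_EPZ.

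Of the secretion genes, Wls rose by 1.77 (SE 0.33, adjusted p = 0.000136) and Porcn fell by 1.70 on the log2 scale (SE 0.20, adjusted p = 3.75e-08) in d3 G+ cells against ESC. Porcn then rose by 1.92 (SE 0.20, adjusted p = 1.69e-08) from d5 Ghigh to d6 G+H+, the step at which 3 ligands fell. Among 16 receptors and co-receptors, Fzd5 rose by 2.76 (SE 0.46, adjusted p = 5.51e-05) and Fzd10 fell by 1.68 (SE 0.40, adjusted p = 0.00322) at that step. Fzd1 was higher in d3 G+ than in G- cells by 1.60 (SE 0.31, adjusted p = 0.00096). In ADE_EPZ 3 of the 16 were called higher than in Control and 0 lower. Among 9 R-spondins and their receptors, Rspo3, which amplifies Wnt signals, fell by 3.64 (SE 0.65, adjusted p = 0.000136) at the step to d6 and by 2.75 (SE 0.65, adjusted p = 0.00426) in ADE_EPZ. Rspo1 rose in ADE_EPZ by 1.70 (SE 0.33, adjusted p = 0.000538).

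Of 16 extracellular inhibitors 3 were called higher and 0 lower from d5 Ghigh to d6 G+H+, and likewise 3 and 0 in ADE_EPZ against Control. Sfrp5, a secreted Frizzled-related protein whose ADE_EPZ value is named after it was seen, rose by 3.56 (SE 0.41, adjusted p = 1.48e-07) at d6 and by 1.61 (SE 0.41, adjusted p = 0.00779) in ADE_EPZ, and Shisa2, which retains Frizzled receptors inside the cell, rose by 2.47 (SE 0.35, adjusted p = 5.43e-06) and 2.04 (SE 0.35, adjusted p = 0.000151). In d3 G+ against G- cells 2 of the 16 inhibitors were called higher and 1 lower, beside the rise of Wnt5a. Frzb rose by 4.07 (SE 0.48, adjusted p = 4.44e-07) and Dkk1, which blocks Lrp5 and Lrp6, by 3.32 (SE 0.57, adjusted p = 0.000182). Sfrp4 was lower, at -1.52 (SE 0.33, adjusted p = 0.00367).

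**Figure D5:**
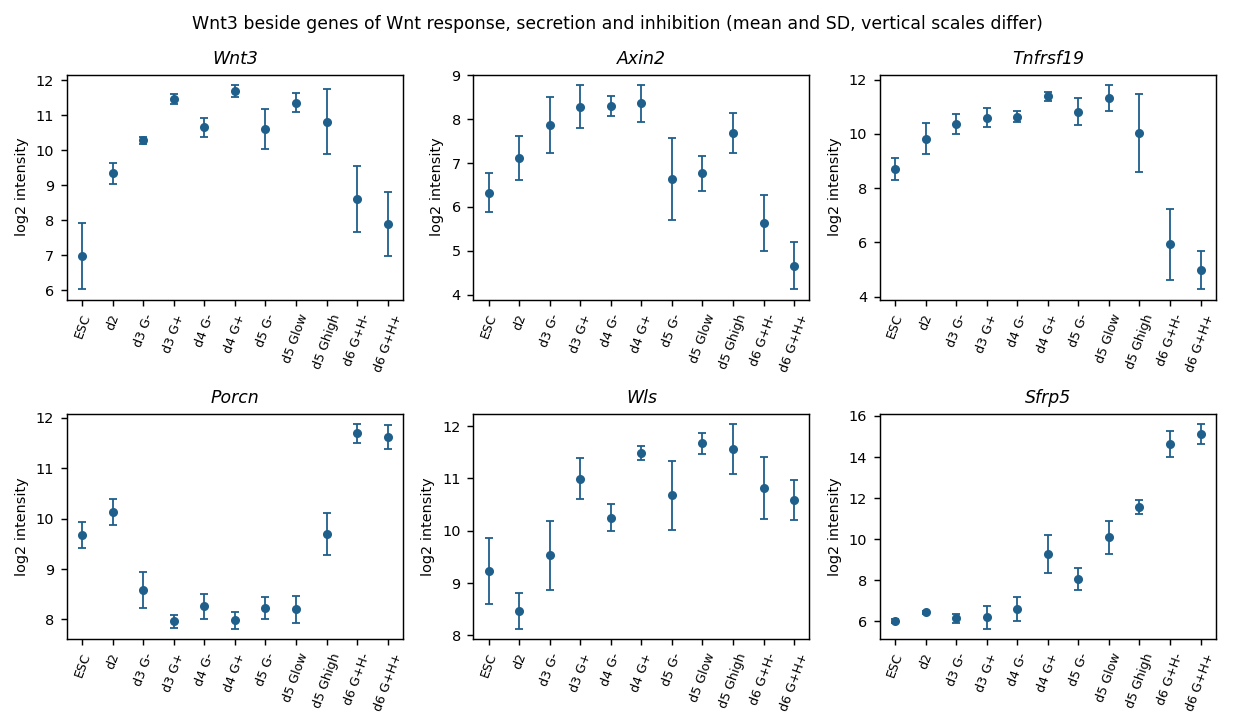
Log2 intensity (vertical axis, mean and SD of 3 arrays) of Wnt3, the target genes Axin2 and Tnfrsf19, the secretion genes Porcn and Wls and the inhibitor Sfrp5 in the 11 untreated groups. Wnt3, Axin2 and Tnfrsf19 were lower in both d6 groups than in d5 Ghigh, while Porcn and Sfrp5 were higher.

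Of 11 other Wnt ligands 0 were called at d2 or in d3 G- cells against ESC, and 2 were called higher in d3 G+ cells, Wnt2 at 1.82 (SE 0.32, adjusted p = 4.24e-05) and Wnt10a at 1.69 (SE 0.46, adjusted p = 0.00765). At d4 Wnt2 was called higher in G+ than in G- cells (2.12, SE 0.32, adjusted p = 3.25e-05) and Wnt7b lower (-1.61, SE 0.31, adjusted p = 0.000738). From d5 Ghigh to d6 G+H+ Wnt4 fell by 2.41 (SE 0.58, adjusted p = 0.00331) and Wnt2 by 1.74 (SE 0.32, adjusted p = 0.000154), and Wnt9a rose by 1.65 (SE 0.41, adjusted p = 0.00507). In ADE_EPZ Wnt9a, a gene next to Wnt3a, rose by 2.66 (SE 0.41, adjusted p = 3.83e-05), from 6.87 ± 0.12 in Control to 9.53 ± 0.33 (SD, n = 3 each), while Wnt3a was above background on no array of either group.

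Likeness of pattern was described by Pearson's r over the 11 untreated group means, which share arrays and normalisation, and no test was made. Among the 8 ligands the pair most alike was Wnt3 and Wnt9b (r = 0.92), followed by Wnt5b and Wnt6 (r = 0.91), and the least alike was Wnt8a and Wnt11 (r = -0.43). Of 2968 other genes with a range of at least 2 log2 units, the 3 most like Wnt3 were Msx1 (r = 0.978), Hoxd1 (r = 0.968) and Nkd1 (r = 0.966), the last of them a Wnt target gene. For Wnt9b they were Aplnr (r = 0.959), Mesp1 (r = 0.958) and Chst2 (r = 0.957). For Wnt5a they were Tmem185a (r = 0.989), Ier5 (r = 0.964) and Tnnt2 (r = 0.957), and for Wnt5b Chst7 (r = 0.978), Parp8 (r = 0.975) and Apln (r = 0.959). For Wnt6 they were Rasl11b (r = 0.976), Spsb4 (r = 0.966) and Aif1l (r = 0.965), for Wnt8a Gria4 (r = 0.985), Pim2 (r = 0.973) and Batf3 (r = 0.970), and for Wnt11 Greb1 (r = 0.985), Relt (r = 0.982) and Ablim1 (r = 0.981). The highest r for Wnt3a was 0.790, with Avpr1b.

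Wnt3 and Wnt9b are also neighbours on chromosome 11, transcribed away from each other with 24.4 kb between their starts. Wnt3a and Wnt9a are likewise divergent neighbours on chromosome 11, with 16.2 kb between starts and r = -0.14, and Wnt6 and its neighbour Wnt10a had r = 0.87. RefSeq promoters of build GRCm38.p6 were held for 6 of the 8 ligands, with 9 starts. The 250 bases before the start are shown for the neighbours Wnt3 and Wnt9b, which moved together, and for the Wnt5b and Wnt11 starts that hold the TCF/LEF letters CTTTGA on either strand, printed in capitals.
Wnt3, chr11:103773925-103774174, + strand: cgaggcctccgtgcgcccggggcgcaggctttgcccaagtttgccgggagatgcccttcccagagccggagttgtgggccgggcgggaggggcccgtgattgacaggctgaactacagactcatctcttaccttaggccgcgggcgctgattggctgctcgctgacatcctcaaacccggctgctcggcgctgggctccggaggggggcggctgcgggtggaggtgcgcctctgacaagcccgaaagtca
Wnt9b, chr11:103749822-103750071, - strand: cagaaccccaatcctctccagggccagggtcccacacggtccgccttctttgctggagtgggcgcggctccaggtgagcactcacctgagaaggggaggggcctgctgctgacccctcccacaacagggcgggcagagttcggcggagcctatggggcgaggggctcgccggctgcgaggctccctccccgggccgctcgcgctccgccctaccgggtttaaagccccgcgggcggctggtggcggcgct
Wnt5b, chr6:119449387-119449636, - strand: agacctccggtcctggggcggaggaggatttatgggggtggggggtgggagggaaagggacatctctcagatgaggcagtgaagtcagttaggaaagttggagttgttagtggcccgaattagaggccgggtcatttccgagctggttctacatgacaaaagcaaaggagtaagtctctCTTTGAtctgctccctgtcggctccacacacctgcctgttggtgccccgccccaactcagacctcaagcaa
Wnt11, chr7:98834862-98835111, + strand: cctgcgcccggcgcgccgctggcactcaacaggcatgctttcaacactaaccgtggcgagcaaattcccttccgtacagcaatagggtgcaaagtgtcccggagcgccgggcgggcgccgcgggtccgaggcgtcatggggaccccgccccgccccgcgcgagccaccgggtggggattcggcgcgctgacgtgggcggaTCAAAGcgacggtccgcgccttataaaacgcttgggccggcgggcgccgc

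The TCF/LEF letters begin 71 bases before 1 of the 3 Wnt5b starts and, on the opposite strand, 50 bases before 1 of the 2 Wnt11 starts. They are in 2 of the 9 ligand windows and in 13.8% of the 32851 RefSeq promoter windows of the same length. The T-box letters AGGTGT are in 1 of the 9, that of the same Wnt5b start, and in 11.8% of all windows. The FOXH1 letters AATCCACA are in 0 of the 9 and in 0.718%, both strands searched. No match overlapped another. Wnt3 and Wnt9b each have 22 CG dinucleotides in the window, where the median of all windows is 6, so 85.2% of windows have fewer. The other ligand starts run from 4, at a Wnt5b start, to 41, at the Wnt3a start, so a high count is not particular to these neighbours.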

How the data were processed

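RNA was hybridised to 42 one-colour Agilent mouse 8x60K arrays, 3 for each of 14 groups. The authors background-corrected the scanner intensity with normexp (offset 10), quantile-normalised it and deposited the result as log2 values, which were used for all levels and tests. The deposited scanner intensity files, from Agilent Feature Extraction 11.0.1.1 and 12.0.1.1, gave the flags for signal above background, the slides and the values under other normalisations. Values recomputed from them correlated with the deposited values at 0.999979 or more. Quantile normalisation gives every array the same distribution, so a shift common to all genes would not be seen.

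Probes were named by RefSeq accession, and each gene was taken by its brightest probe over all arrays. Group means were fitted over all 42 arrays with limma 3.58.1 (lmFit and eBayes) in R 4.3.3, with statmod 1.5.0 for random blocks. P-values were adjusted by Benjamini-Hochberg over 55681 probes, and a call needed an adjusted p of at most 0.01 and a log2 difference of at least 1.5. How often a true difference near these thresholds goes uncalled was not tested. With 3 arrays against 3 a permutation test cannot go below p = 0.1, so none was run.

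Named were the 8 ligands, up to 2 called genes with the largest change per direction and list, the 3 genes most like each ligand, and neighbouring Wnt genes. Genes outside this rule are said to be named after their values were seen. The members and lists were chosen with earlier results of these data known. Same-numbered arrays deviated together (every pair over 0.1) in 6 of 14 comparisons, with correlations from -0.06 to 0.67 over all. Replicates 1 and 2 of the untreated series lay on 3 slides and replicate 3 on 2 others. Promoter sequences came from RefSeq on GRCm38.p6, while the array design uses mm9, so no array coordinates are given.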

Additional observations from a re-analysis of the deposited data

How the results depend on the processing

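No called ligand difference changed direction under any alternative or left-out array. The number of ligands called moved by over 1.5 times as follows. With only the compared groups in the fit it was 1 in place of 3 for d2 against ESC, and 0 for d4 G+ against G- (1 otherwise), d5 Glow against G- (1 otherwise) and d6 G+H+ against d5 Ghigh (3 otherwise). With a normexp offset of 50 it was 2 in place of 4 for d6 G+H+ against ESC and 0 for d4 G+ against G-. With 75th percentile scaling it was 0 for d4 G+ against G- and for d5 Glow against G-, and so it was with the third replicates of the untreated groups left out together, an alternative chosen after seeing the data. Single calls lost or gained in other comparisons stand beside their values. The cause was not tested, except that fits of 2 groups have fewer arrays to estimate the spread. Under 75th percentile scaling the median of all probes was 0.18 for d3 G+ against G- (0.01 otherwise), -0.14 for d6 G+H+ against d5 Ghigh (-0.02 otherwise) and -0.14 for d3 G- against ESC (0.00352 otherwise).

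With 1 array left out, the number called ranged from 1 to 3 for d2, 4 to 5 for d3 G-, 7 to 7 for d3 G+, 5 to 6 for d5 Glow, 4 to 4 for d5 Ghigh and 3 to 4 for d6 G+H+ against ESC. It ranged from 0 to 2 for d3 G+ against G-, 0 to 1 for d4 G+ against G-, d5 Glow against G- and d5 Ghigh against Glow, 3 to 4 for d6 G+H+ against d5 Ghigh and 1 to 1 for ADE_EPZ, and stayed at 0 for ES_EPZ and d6 G+H+ against G+H-. The Wnt3 call in ADE_EPZ held under all 11 alternatives. The replicate block, with pairing by replicate number, changed no call of the ligand differences, 59 of 59, and gave 1 call for ADE_EPZ and 3 for d6 G+H+ against d5 Ghigh; the slide as a block likewise kept 59. Wnt3a in most groups, and Wnt6 and Wnt8a in the sorted d6 cells, lay near background, so their differences are bounds where no array of a group was above it and are otherwise measured on few arrays. Wnt9b was above background on only some of the arrays in ESC, d6 G+H+, ADE_EPZ and ES_EPZ.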
